A study of Mus musculus with 8 samples.

Results

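Genes that mark the layers of the cerebral cortex were followed in the prefrontal cortex of mice labelled Mll1 knockout and of wild-type mice. The list held 33 genes of the 25048 gene symbols tested, 15 of them markers of the upper layers and 18 of the deep layers, and each was found by its symbol in the authors' comparison table. Arrays came from 4 male mice labelled Mll1 Ko and 4 wild-type males, all 12 weeks old, housed singly for a week and taken at rest, with the tissue dissected at the cingulate cortex. The series title calls the deletion neuronal. The labels name no deleted exon, Cre line, promoter or strain. Values are the authors' log2 signals, on which 1 unit is a 2-fold step, and all differences are labelled Mll1 knockout minus wild-type.

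The product of Mll1 (current symbol Kmt2a) methylates lysine 4 of histone H3, a modification found at active promoters. The cortex is a sheet of stacked layers. Upper layer neurons mainly connect cortical areas with each other, whereas many deep layer neurons send axons to the thalamus, brainstem and spinal cord. Each layer can be recognised by the genes its neurons express. Because whole tissue was measured, fewer cells of a layer and less RNA per cell cannot be told apart.

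The targeted gene did not check the labels. Kmt2a gave 10.42, 10.38, 10.29 and 10.30 log2 signal on the arrays labelled Mll1 knockout 1 to 4, against 9.94, 10.13, 10.12 and 10.06 on wild-type arrays 1 to 4, a rise of 0.29 ± 0.06 log2 (SE; limma, adjusted p = 0.0140). One probe set summarised the gene, and it may lie outside the deleted part, so groups are named as labelled and every direction rests on those labels. The tissue gave the signals of cortical excitatory neurons, with Slc17a7, the vesicular glutamate transporter of cortex, at 12.67 and Camk2a, a kinase of forebrain excitatory neurons, at 13.27 (means of 8 arrays). Such tissue-wide signals do not show from which layer a signal came. The first principal component of all genes, 42.8% of the variance, placed the arrays labelled Mll1 knockout at 9.52 to 14.00 and the wild-type arrays at -20.84 to -7.86, with wild-type 1 farthest out, and wild-type 4 stood apart on the second at -19.93.

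Layer markers moved in both directions within each group of layers. Of 15 upper layer markers 2 rose, 3 fell and 10 did not pass the test, and of 18 deep layer markers 2 rose, 1 fell and 15 did not pass (limma, Benjamini-Hochberg over all 25048 genes, threshold 0.05). The rises were Otof, Wfs1, Crym and Sla, and the falls were Rspo1, Rorb, Pou3f3 and Trh. Over all genes 11.0% were called, 5.25% as rises and 5.72% as falls, against 33.3% of the upper and 16.7% of the deep layer markers. No layer marker lay among the 6264 dimmest genes, and among the 16615 genes at or above the dimmest member (7.58 log2) 11.4% were called, 7.50% as rises and 3.89% as falls. The share called was not tested between the lists.

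**Figure D1:**
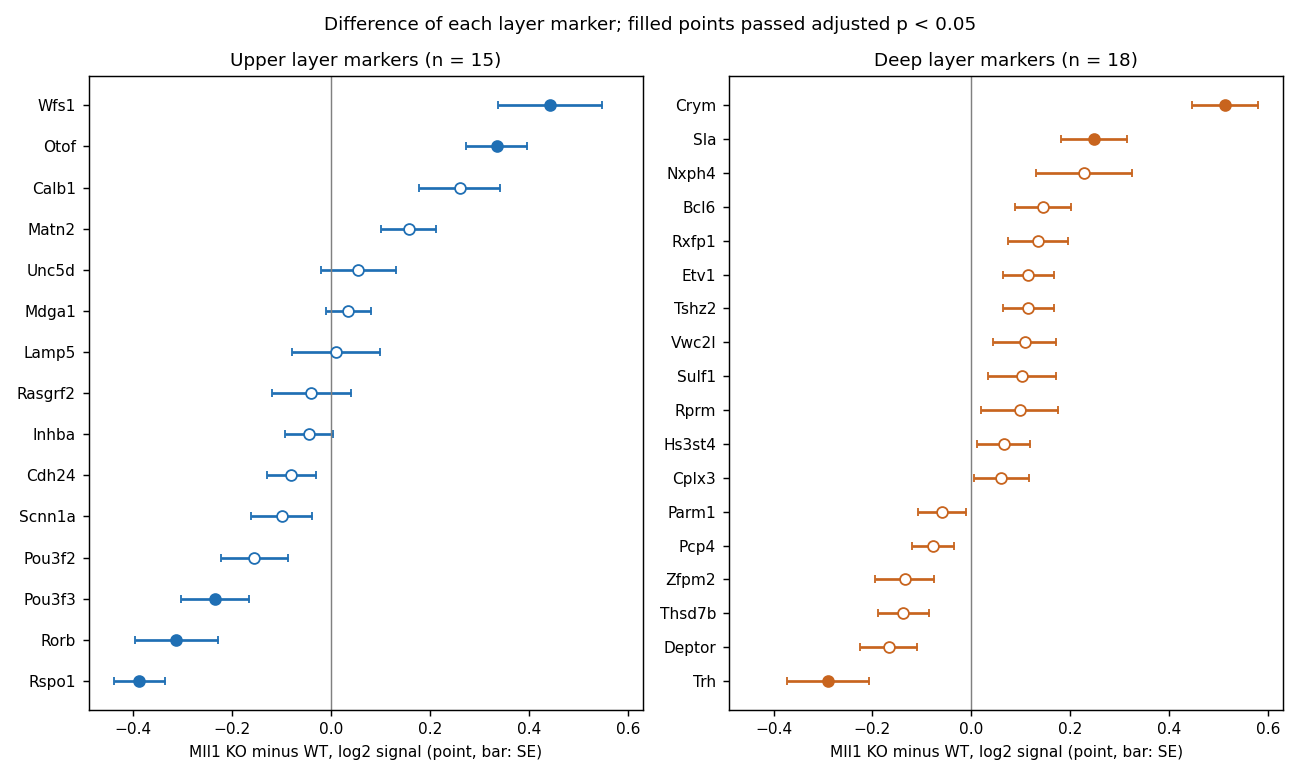
Difference in log2 signal, labelled Mll1 knockout minus wild-type, for each upper layer marker (left, 15 genes) and deep layer marker (right, 18 genes), with bars for the SE; filled points passed the threshold. Upper layer markers run from -0.39 (Rspo1) to 0.44 (Wfs1) and deep layer markers from -0.29 (Trh) to 0.51 (Crym).

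Both list medians were small. The median difference was -0.04 log2 over the upper layer markers and 0.10 over the deep layer markers, against -0.03 over all genes tested and 0.02 over the 16615 genes at or above the dimmest member. Differences were positive for 7 and negative for 8 upper layer markers, and positive for 12 and negative for 6 deep layer markers, against 41.5% positive over all genes and 55.6% over the genes at or above the dimmest member. The deep layer median was 0.05 without Mll1 knockout 4 and 0.06 without wild-type 4, and the upper layer median was 0.02 without Mll1 knockout 4 and -0.005 without wild-type 2 or wild-type 4. The mean log2 level of the deep layer markers was 9.14 to 9.19 on the arrays labelled Mll1 knockout and 9.07 to 9.12 on the wild-type arrays, with no overlap. For the upper layer markers it was 9.24 to 9.28 on the arrays labelled Mll1 knockout and 9.22 to 9.31 on the wild-type arrays, which overlapped. Like the deep layer mean, the mean over all genes did not overlap, at 8.251 to 8.267 on the arrays labelled Mll1 knockout and 8.273 to 8.293 on the wild-type arrays. Separation of a mean was therefore not particular to the deep layer markers. The directions differed, with the mean over all genes lower on the arrays labelled Mll1 knockout and the deep layer mean higher. The mean over all genes takes in the 6264 dimmest, which held no layer marker and had a median difference of -0.11 log2. Over the 16615 genes at or above the dimmest member the median difference was positive, as for the deep layer markers. These are descriptions with no test, since the genes were chosen with results known.

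Among the upper layer markers, Rspo1 had the largest fall. It encodes R-spondin 1, a secreted protein that enhances Wnt signalling. Its signal was 8.15, 8.15, 8.27 and 8.28 on the arrays labelled Mll1 knockout 1 to 4, against 8.64, 8.53, 8.63 and 8.60 on wild-type 1 to 4. Every wild-type value lay above every value of the other group. The difference of -0.39 ± 0.05 log2 (SE, n = 4 and 4; limma, adjusted p = 0.00243), 1.31-fold higher in wild-type, kept its call under every alternative run, with adjusted p from 0.000617 to 0.0211.

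Rorb, known as a layer 4 marker, encodes a nuclear receptor, and which cells of this tissue gave its signal was not tested. Its signal was 9.40, 9.42, 9.34 and 9.57 on the arrays labelled Mll1 knockout, against 9.53, 9.90, 9.88 and 9.67 on the wild-type arrays. Only Mll1 knockout 4 and wild-type 1 overlapped, by 0.04 log2. The fall was 0.31 ± 0.08 log2 (SE; limma, adjusted p = 0.0382). The call ended without any 1 of Mll1 knockout 1, 2 and 3 or wild-type 2 and 3 (adjusted p = 0.0719 to 0.102). It also ended with each array centred on its median (-0.28, adjusted p = 0.0589) and in the unmoderated test (adjusted p = 0.123), and it held after quantile normalization (-0.37, adjusted p = 0.0216).

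The POU transcription factor genes Pou3f3 and Pou3f2 encode close relatives that act together in the making of upper layer neurons. Pou3f3 gave 9.07, 9.12, 9.18 and 9.21 on the arrays labelled Mll1 knockout, against 9.34, 9.50, 9.48 and 9.20 on the wild-type arrays. Wild-type 4 lay within the range of the other group and the remaining wild-type arrays above it. The fall of 0.24 ± 0.07 log2 (SE) was just past the threshold (limma, adjusted p = 0.0495), and it held without wild-type 4 (-0.30, adjusted p = 0.0146). The call ended when any 1 of the other 7 arrays was left out (adjusted p = 0.0619 to 0.114). Pou3f2 gave 8.82, 8.72, 8.75 and 8.77 on the arrays labelled Mll1 knockout, against 9.07, 8.86, 9.00 and 8.75 on the wild-type arrays. With a difference of -0.16 ± 0.07 log2 it did not pass (limma, adjusted p = 0.136), although it did without wild-type 4 (-0.21, adjusted p = 0.0401). A dimmer probe set of Pou3f2 was at -0.09 ± 0.15.

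Otof and Wfs1 rose. Otoferlin, the product of Otof, is a calcium-binding protein of vesicle fusion known from the inner ear. Its signal was 8.96, 8.76, 8.81 and 8.72 on the arrays labelled Mll1 knockout, against 8.46, 8.57, 8.49 and 8.39 on the wild-type arrays, with no overlap. The rise was 0.34 ± 0.06 log2 (SE, 1.26-fold; limma, adjusted p = 0.0106). It held without any 1 array (adjusted p = 0.0162 to 0.0365) and ended without wild-type 1 and 4 together (0.28, adjusted p = 0.0654).

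Wfs1 encodes wolframin, a membrane protein of the endoplasmic reticulum. It gave 10.53, 10.59, 10.55 and 11.06 on the arrays labelled Mll1 knockout, against 10.28, 10.32, 10.25 and 10.11 on the wild-type arrays. The groups did not overlap, and Mll1 knockout 4 stood 0.47 log2 above the next array. The rise was 0.44 ± 0.11 log2 (SE, 1.36-fold; limma, adjusted p = 0.0265). Without Mll1 knockout 4 it was 0.32 and still passed (adjusted p = 0.0203), whereas the call ended without Mll1 knockout 2 (0.47, adjusted p = 0.0506) or wild-type 1 (0.46, adjusted p = 0.0591) and after quantile normalization (0.37, adjusted p = 0.0735).

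**Figure D2:**
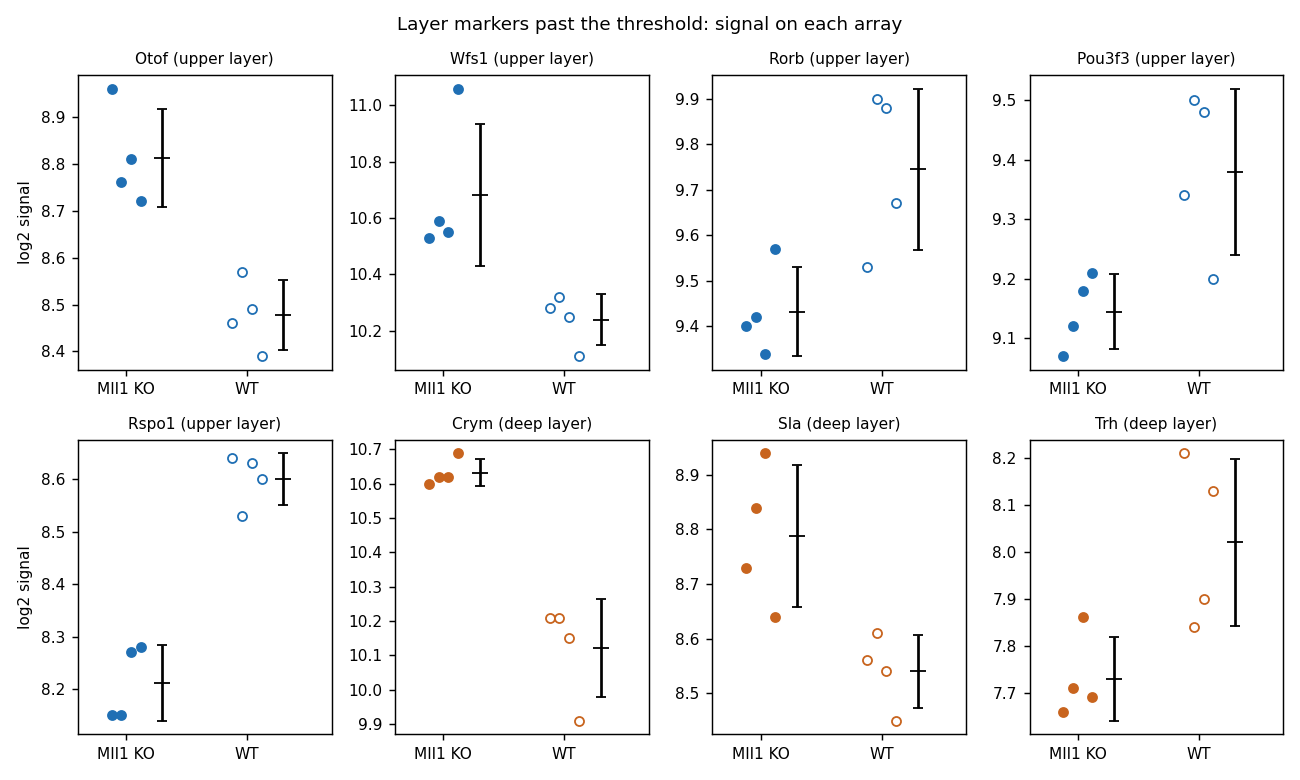
Log2 signal on each array for the 8 layer markers past the threshold, labelled Mll1 knockout at left (filled) and wild-type at right (open), upper layer genes in blue and deep layer genes in orange; black marks are the mean ± SD of 4 arrays. Groups do not overlap for Otof, Wfs1, Rspo1, Crym and Sla, and overlap for Rorb, Pou3f3 and Trh.

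The remaining 10 upper layer markers had differences from -0.16 to 0.26 log2, all with overlapping values. Calb1, the calcium buffer calbindin, was the largest of them. It gave 11.33, 11.54, 11.49 and 11.67 on the arrays labelled Mll1 knockout, against 11.12, 11.27, 11.17 and 11.43 on the wild-type arrays. The difference of 0.26 ± 0.08 log2 did not pass (limma, adjusted p = 0.0606). It passed under 7 of 20 alternatives at the same threshold (adjusted p = 0.0268 to 0.0474), among them leaving out Mll1 knockout 1 or wild-type 4 (0.32 in both), centring each array on its median (0.30) and array weights (0.25), and after quantile normalization it did not (0.21, adjusted p = 0.119). Matn2, a matrix protein, was at 0.16 ± 0.06 log2 (adjusted p = 0.0817). The Ras exchange factor gene Rasgrf2 was at -0.04 ± 0.08 and the lysosomal membrane protein gene Lamp5 at 0.01 ± 0.09, and in both Mll1 knockout 4 was the lowest array, at 10.11 in Rasgrf2 (10.33 to 10.38 on the others labelled Mll1 knockout) and 11.03 in Lamp5 (11.37 to 11.49). The differences of Rasgrf2, Lamp5 and Unc5d changed sign under some alternatives.

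Unc5d, a receptor of the netrin family, had a pair of probe sets that differed. The brighter gave 9.17, 9.27, 9.18 and 9.25 on the arrays labelled Mll1 knockout, against 8.98, 9.31, 9.30 and 9.06 on the wild-type arrays (0.06 ± 0.08 log2, adjusted p = 0.624). The dimmer gave 9.25, 9.29, 9.21 and 9.30 on the arrays labelled Mll1 knockout, against 9.07, 9.12, 9.10 and 8.93 on the wild-type arrays, with no overlap. That difference was 0.21 ± 0.05 log2 (limma over all named clusters, adjusted p = 0.0354). The adhesion genes Mdga1 (0.04 ± 0.05) and Cdh24 (-0.08 ± 0.05), the activin subunit gene Inhba (-0.05 ± 0.05) and Scnn1a (-0.10 ± 0.06) had adjusted p of 0.267 to 0.602 (limma). Scnn1a encodes a sodium channel subunit and is also known as a layer 4 marker.

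Among the deep layer markers Crym had the largest rise. Its product, mu-crystallin, binds thyroid hormone in the cytosol. Crym gave 10.60, 10.62, 10.62 and 10.69 on the arrays labelled Mll1 knockout, against 10.21, 10.21, 10.15 and 9.91 on the wild-type arrays. The groups lay apart, and wild-type 4 was the lowest array. The rise of 0.51 ± 0.07 log2 (SE, 1.43-fold; limma, adjusted p = 0.00227) kept its call under every alternative run (adjusted p = 0.000334 to 0.0287), and it was 0.44 without wild-type 4.

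Sla encodes an adaptor protein related to Src kinases. It gave 8.73, 8.84, 8.94 and 8.64 on the arrays labelled Mll1 knockout, against 8.56, 8.61, 8.54 and 8.45 on the wild-type arrays, with no overlap but a gap of only 0.03 log2. The rise of 0.25 ± 0.07 log2 (SE; limma, adjusted p = 0.0390) still passed without Mll1 knockout 4. The call ended when any 1 of the other 7 arrays was left out (adjusted p = 0.055 to 0.104). After quantile normalization it was 0.24 (adjusted p = 0.0519).

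Trh, the precursor of thyrotropin-releasing hormone, was the one deep layer marker to fall. It gave 7.66, 7.71, 7.86 and 7.69 on the arrays labelled Mll1 knockout, against 8.21, 7.84, 7.90 and 8.13 on the wild-type arrays. Mll1 knockout 3 overlapped wild-type 2. The fall of 0.29 ± 0.08 log2 (SE; limma, adjusted p = 0.0456) still passed without wild-type 2 or wild-type 3. The call ended when any 1 of the other 6 arrays was left out (adjusted p = 0.0644 to 0.108). With wild-type 1 and 4 both left out the fall was 0.14 (adjusted p = 0.217), and after quantile normalization 0.23 (adjusted p = 0.144).

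The promoters of Rspo1, Wfs1 and Trh are shown because these genes moved in different directions and MLL1 carries a domain that binds unmethylated CG dinucleotides. The stretches are the 250 bases before the RefSeq start (GRCm38.p6), read on the gene's strand, with every CG in capitals. Rspo1 lies at chr4:124986180-124986429 on the plus strand, Wfs1 at chr5:36988983-36989232 on the minus strand and Trh at chr6:92244651-92244900 on the minus strand.
Rspo1: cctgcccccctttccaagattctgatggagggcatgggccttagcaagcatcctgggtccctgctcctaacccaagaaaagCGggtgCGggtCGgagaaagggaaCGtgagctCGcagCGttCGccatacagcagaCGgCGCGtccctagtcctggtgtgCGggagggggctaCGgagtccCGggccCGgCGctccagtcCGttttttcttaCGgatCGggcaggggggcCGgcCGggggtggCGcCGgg
Wfs1: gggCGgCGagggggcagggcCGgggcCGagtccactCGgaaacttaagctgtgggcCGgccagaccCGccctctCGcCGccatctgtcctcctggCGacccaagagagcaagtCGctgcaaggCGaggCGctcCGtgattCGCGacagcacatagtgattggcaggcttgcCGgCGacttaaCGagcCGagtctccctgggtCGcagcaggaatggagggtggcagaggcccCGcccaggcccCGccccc
Trh: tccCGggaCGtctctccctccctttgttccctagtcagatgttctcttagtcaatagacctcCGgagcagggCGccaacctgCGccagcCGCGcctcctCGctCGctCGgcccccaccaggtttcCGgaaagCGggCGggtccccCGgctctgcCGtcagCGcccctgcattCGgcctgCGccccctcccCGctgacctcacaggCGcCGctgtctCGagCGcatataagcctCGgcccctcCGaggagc

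The Rspo1 stretch held 22 CG dinucleotides, that of Wfs1 23 and that of Trh 25, so the stretches shown were alike in this count. Wfs1 was the only called rise with a stretch, since Otof, Crym and Sla were among 12 layer markers without one. Rises and falls could therefore not be compared in this count. Over all 32851 RefSeq promoter stretches of the same length the median was 6, and over the 25 stretches of the 21 layer markers in the table it was 13, with 1 to 43 CG dinucleotides. The other genes that fell had fewer than the stretches shown. Pou3f3 had 15, and Rorb had 18 before its outer start and 4 before an inner one. The median was 18 for upper layer and 9 for deep layer markers. Searched on both strands, TATAAA was found in 3 of the 25 stretches (Inhba, Vwc2l and an inner start of Etv1) and in 12.4% of all promoters. AGGTCA, a receptor half-site used by the factor that Rorb encodes, was found in 3 (Cplx3, Pcp4 and Trh) and in 14.0% of all promoters. ATGCAAAT, the octamer bound by POU factors, was found in Vwc2l and in 1.60% of all promoters, and CCGGAAG, which holds a CG and is bound by ETS factors such as Etv1, in Pou3f3 and in 6.91%.

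The 15 deep layer markers that did not pass had differences from -0.17 to 0.23 log2. Deptor, an inhibitor of the growth kinase mTOR, gave 9.71, 9.59, 9.63 and 9.60 on the arrays labelled Mll1 knockout, against 9.79, 9.86, 9.88 and 9.67 on the wild-type arrays. Mll1 knockout 1 overlapped wild-type 4. The difference of -0.17 ± 0.06 log2 did not pass (limma, adjusted p = 0.0742), and it passed under 5 of 20 alternatives, among them leaving out wild-type 4 (-0.21, adjusted p = 0.0272) and quantile normalization (-0.23, adjusted p = 0.0329). Pcp4, a calmodulin-binding peptide of layer 5, gave 12.71, 12.73, 12.75 and 12.75 on the arrays labelled Mll1 knockout, against 12.86, 12.79, 12.80 and 12.80 on the wild-type arrays. The groups did not overlap, but the difference was small and did not pass (-0.08 ± 0.04 log2, adjusted p = 0.225). Its probe set also names Igsf5 in the authors' table, so its signal may not be from Pcp4 alone. Values without overlap were found for 6 of the 33 markers and for 19.8% of all genes.

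Nxph4, a secreted partner of neurexins in layer 6b, was at 0.23 ± 0.10 log2 (adjusted p = 0.128). Mll1 knockout 4 gave 8.54 and the others labelled Mll1 knockout 8.06 to 8.16, against 7.86 to 8.10 on the wild-type arrays. Without Mll1 knockout 4 the difference was 0.12. Rprm, known as a p53 target, showed the same array apart, at 10.31 against 9.93 to 10.05 on the others labelled Mll1 knockout and 9.88 to 10.05 on the wild-type arrays. Cplx3, a complexin of vesicle release that also marks layer 6b, was at 0.06 ± 0.06.

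The transcription factor genes of the deep list did not pass, with Etv1 of layer 5 at 0.12 ± 0.05 log2, the repressor gene Bcl6 at 0.15 ± 0.06, Tshz2 at 0.12 ± 0.05 and the GATA cofactor gene Zfpm2 at -0.14 ± 0.06 (adjusted p = 0.107 to 0.144). The heparan sulfate enzyme genes Sulf1 (0.10 ± 0.07) and Hs3st4 (0.07 ± 0.05) were at adjusted p of 0.304 and 0.404. The relaxin receptor gene Rxfp1 (0.14 ± 0.06), Vwc2l (0.11 ± 0.06), Thsd7b (-0.14 ± 0.05) and the mucin-like Parm1 (-0.06 ± 0.05) were at adjusted p of 0.0948 to 0.396. Unadjusted p (limma) was under 0.05 for 8 of these 15 deep layer markers and for 3 of the 10 upper layer markers that did not pass. Over the whole table it was so for 24.9% of the 22300 genes that did not pass. These markers went both ways. Etv1, Bcl6, Nxph4, Tshz2 and Rxfp1 of the deep and Calb1 and Matn2 of the upper list were positive. Thsd7b, Zfpm2 and Deptor of the deep and Pou3f2 of the upper list were negative.

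**Figure D3:**
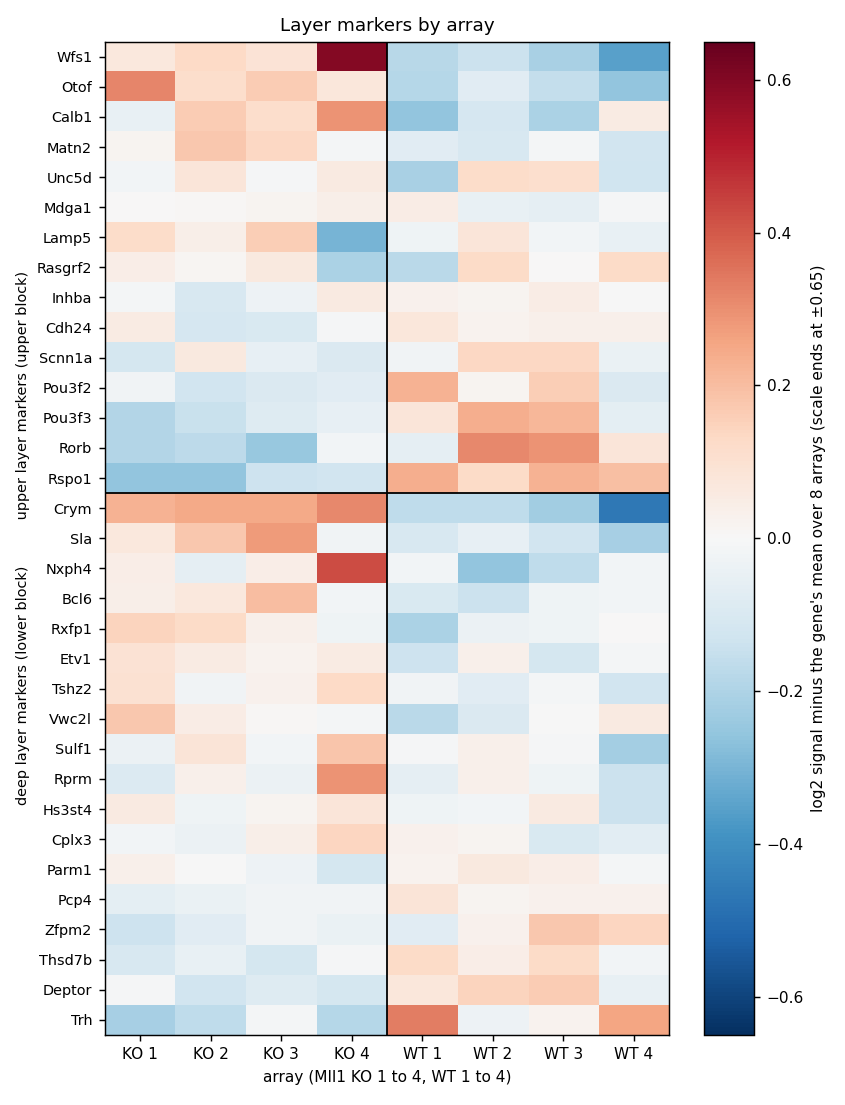
Log2 signal of each layer marker on each array minus that gene's mean over the 8 arrays, with arrays labelled Mll1 knockout at left and wild-type arrays at right, upper layer markers in the upper block and deep layer markers in the lower, each ordered by difference. Mll1 knockout 4 (KO 4) departs from the other 3 arrays of its group in Wfs1, Nxph4, Rprm, Lamp5 and Rasgrf2, and wild-type 4 (WT 4) is low in Crym and Wfs1.

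Single arrays carried part of the spread. Mll1 knockout 4 was the highest of its group at 15 of the 33 markers and the lowest at 9. Mll1 knockout 1 was the highest at 8 and the lowest at 12, and Mll1 knockout 3 was the highest at 6 and the lowest at 3. Wild-type 4 was the lowest of its group at 17 markers and the highest at 4. The SD within a group had a median of 0.08 log2 in both groups and reached 0.25 for Wfs1 on the arrays labelled Mll1 knockout and 0.18 for Trh on the wild-type arrays.

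Signal level and scaling bear on these counts. Bright genes rose more often than dim ones: among the brightest 6261 genes (from 9.41 log2) 12.2% rose and 1.98% fell, with a median of 0.07, and among the 6261 genes from 7.18 to 8.24 log2 1.85% rose and 9.07% fell, with a median of -0.10. Crym and Wfs1, which rose, and Rorb, which fell, lay in the first of these classes, Trh in the second, and the other 4 called markers between them. That class between held 6262 genes from 8.24 to 9.41 log2, 15 of them layer markers. In it 6.37% rose and 3.02% fell, with a median of 0.02. In the deposited values 47.9% of all calls were rises, and after quantile normalization 60.5%. Rspo1, Rorb, Pou3f3, Otof and Crym kept their calls after quantile normalization, those of Wfs1, Sla and Trh ended, and Deptor was added as a fall. That left 1 rise and 3 falls among upper layer markers, and 1 rise and 1 fall among deep layer markers. Over all 25048 genes quantile normalization left 739 rises and 483 falls, against 1316 and 1432 in the deposited values.

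**Figure D4:**
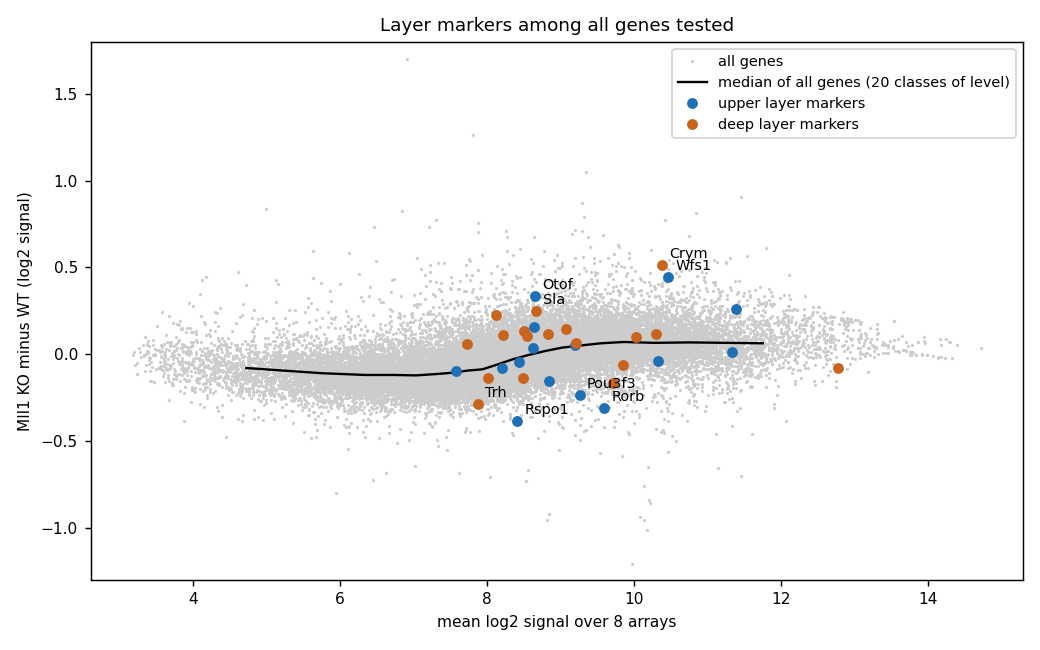
Difference in log2 signal, labelled Mll1 knockout minus wild-type, against mean log2 signal over 8 arrays, for all 25048 genes (grey) with upper (blue) and deep (orange) layer markers; the line is the median of all genes in 20 classes of level. The line lies below 0 at low signal and above 0 at high signal, with Trh and Rspo1 below it and Crym and Wfs1 above it.

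**Figure D5:**
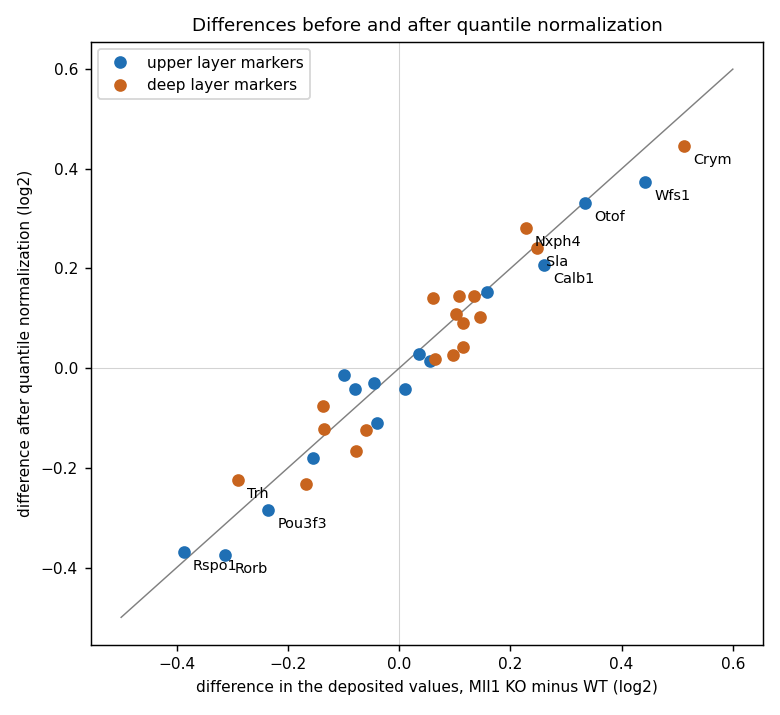
Difference of each layer marker in the deposited values (horizontal) and after quantile normalization (vertical), both in log2 signal, labelled Mll1 knockout minus wild-type; the line marks equal values. Crym is at 0.51 before and 0.45 after, Rorb at -0.31 before and -0.37 after, and Lamp5 alone changes sign.

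The authors' deposited table gave an FDR p-value under 0.05 to 3 of the 33 markers, Rspo1 (0.0164), Crym (0.0286) and Otof (0.0489), against 4.13% of all clusters in that table. All 3 were called here in the same direction. In the authors' deposited table the FDR p-values of the other 5 called markers were 0.106 to 0.137.

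Further genes of layer identity were counted from separate lists. Of 13 further upper layer genes, with differences from -0.76 to 0.34 log2, 2 rose and 2 fell, among them Plxnd1, a semaphorin receptor gene (0.34 ± 0.05 log2), Lpl, a lipase (0.23 ± 0.05), and Mef2c, a transcription factor gene (-0.31 ± 0.05). Of 14 further deep layer genes 3 rose and 7 fell. The share called was 30.8% of the further upper and 71.4% of the further deep layer genes, against 11.0% of all genes. These shares were not tested. Htr2c, a serotonin receptor gene (0.69 ± 0.07), and Ctgf, a matricellular protein of layer 6b (0.49 ± 0.06), rose, while Foxp2 (-0.48 ± 0.06) and Tbr1 (-0.46 ± 0.06), transcription factor genes of layer 6, fell. The median difference of these 14 was -0.12 log2, against 0.10 for the 18 deep layer markers above, and this was not tested.

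Markers of other cells were measured beside the layer markers. None of 4 general neuron, 8 astrocyte, 8 oligodendrocyte, 8 microglia and 8 endothelial and mural cell markers passed, 2 of 12 interneuron markers fell, and 1 of 5 oligodendrocyte precursor markers and 1 of 6 claustrum markers rose. Of 6 excitatory neuron markers 1 rose and 1 fell. Over all genes 11.0% were called, 5.25% as rises and 5.72% as falls. The striatum, which lies under the cortex, is known to express Crym, Wfs1, Calb1 and Pcp4 too, and 1 of 10 striatal neuron markers rose and 1 fell. Their summed linear signal ranged from 16840 to 20070 on the arrays labelled Mll1 knockout and from 15534 to 18760 on the wild-type arrays, which overlapped. Summed signals did not overlap for claustrum markers (Mll1 knockout 5621 to 5925, wild-type 5378 to 5574), astrocyte markers (Mll1 knockout 24825 to 25637, wild-type 24219 to 24663) and oligodendrocyte precursor markers (Mll1 knockout 3313 to 3552, wild-type 3054 to 3270). The sum over all 25048 genes did not overlap either (Mll1 knockout 16357366 to 16571752, wild-type 15659672 to 16257911). As a percentage of that sum, all 3 of these lists overlapped between the groups, as did both lists of layer markers and the striatal neuron markers. Without overlap were the 6 excitatory neuron markers (Mll1 knockout 0.1312% to 0.1379%, wild-type 0.1380% to 0.1437%, nearly touching) and the 13 further upper layer genes (Mll1 knockout 0.1001% to 0.1024%, wild-type 0.1098% to 0.1159%), both lower on the arrays labelled Mll1 knockout. A sum is weighted to the brightest probe sets. Gene by gene, the median difference of the 6 excitatory neuron markers was -0.04 log2, with 1 positive and 5 negative. That of the 13 further upper layer genes was -0.0075 log2, with 5 positive, 8 negative and 9 not past the threshold. The median over all genes was -0.03. Array signals have no true 0, so the absence of a marker could not be read from them. The part of these cells in the layer marker differences was not tested.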

How the data were processed

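The authors deposited log2 signals for 35556 transcript clusters on 8 arrays. Affymetrix Expression Console, RMA and Transcriptome Analysis Console 3.0 were named, per the submitters' processing notes, with no role or order; the sources used here give no array model, build or annotation. A second table deposited by the authors held mean log2 signals, signed folds (positive where wild-type is higher), p-values and FDR p-values for 28944 clusters, per the file headers. It gave 2108 clusters no symbol and 27 a symbol turned into a date; the other 26809 gave 25048 genes, each taken at its brightest cluster. All were fitted with limma 3.58.1 in R 4.3.3 (lmFit, eBayes, genotype as the factor, no further normalization), two-sided, with Benjamini-Hochberg adjustment at 0.05. Arrays have no count depth, and their number limits precision. Signals of different probe sets are not comparable as transcript levels.

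The members and lists were chosen with earlier results of these data known. All members were to be named, with full values for those past the threshold. From further lists at most 4 passing genes by lowest p were named, and some that this takes are counted but not reported here by name. Alternatives were other normalizations, filters, variance models, array weights, cluster means, a replicate block and left-out arrays. The fit was tested on simulated data, drawn once with limma's moderated variances and once with the raw variances. Those values were independent and normal, with no outlying arrays, so that run checked the working of the fit and not the calls made here. The labels do not say that equal replicate numbers share a litter or batch. The design text counts 4 mice a genotype, so arrays were taken as separate animals.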

Additional observations from a re-analysis of the deposited data

Results flagged for a closer look

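In groups of 4 arrays, 3 of 66 groups held an array whose gap to the nearest other array took 0.84 or more of the group's range, past Dixon's critical value for 4 values, and chance alone gives about 1 in 20. Wfs1 on Mll1 knockout 4 was 11.06, against 10.53 to 10.59 on the other arrays labelled Mll1 knockout. Sulf1 on wild-type 4 was 8.33, against 8.54 to 8.58 on the other wild-type arrays. Pcp4 on wild-type 1 was 12.86, against 12.79 to 12.80 on the other wild-type arrays.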

How the results depend on the processing

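Of 20 alternatives at the same threshold, Rspo1 and Crym passed under all, Otof under 19, Wfs1 under 14, Rorb under 12, Pou3f3 under 9, Sla under 8 and Trh under 6, always in the same direction; of the others Calb1 passed under 7, Deptor under 5, and Matn2, Bcl6, Thsd7b and Pou3f2 under 1 each; the causes of lost calls were not tested. With 1 array left out the upper layer markers had 1 to 3 rises and 1 to 4 falls, the deep layer markers 1 to 2 rises and 0 to 1 falls, and all genes 435 to 1609 rises and 330 to 1912 falls; the medians were -0.048 to 0.022 (upper) and 0.054 to 0.113 (deep). Quantile normalization gave 1 upper and 1 deep rise, 739 rises and 483 falls in all and a deep median of 0.066. Cyclic loess gave 1 upper and 1 deep rise, 801 rises and 499 falls and a deep median of 0.071. Centring gave 1 upper fall and 0 deep falls, 1981 rises and 764 falls and medians of -0.003 (upper) and 0.138 (deep). The unmoderated test gave 1 upper rise, 1 upper fall, 1 deep rise and 0 deep falls, with 607 rises and 423 falls. Array weights gave 4 upper rises, 2 deep falls, 2627 falls in all and a deep median of 0.046. Without wild-type 1 and 4 there were 0 upper rises and 1 deep rise, 511 rises and 461 falls in all and a deep median of 0.059. Chosen after seeing the data, leaving out Mll1 knockout 4 and wild-type 1 gave 1 deep rise and 0 deep falls, 405 rises and 366 falls and a deep median of 0.062, and a threshold of 0.1 gave 4 upper rises, 3 deep falls, 2357 rises and 3448 falls. Also chosen after seeing the data, leaving out clusters that name several genes removed Pcp4 and kept each count within 1.5 times.

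With the replicate number as a block there were 1 upper fall and 0 deep falls, and 861 rises and 806 falls in all. Rorb (adjusted p = 0.0541), Pou3f3 and Trh (both 0.0678) lost their calls under it, and Calb1 gained one (0.0269). Deviations of same-numbered arrays correlated at -0.006 to 0.019, and no array correlated best with its own number, so the numbers were not taken as pairs.

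Differences that changed sign, none of them called, were those of Lamp5 (-0.042 after quantile normalization, -0.066 after cyclic loess, -0.025 without wild-type 1 and 4, and -0.042 to 0.112 with 1 array left out, being -0.028, -0.002, -0.042 and -0.005 without Mll1 knockout 1, 2 and 3 and wild-type 4), Unc5d (-0.032 with array weights, -0.088 without wild-type 1 and 4, -0.017 without Mll1 knockout 4 and wild-type 1, and -0.006 to 0.104 with 1 array left out) and Rasgrf2 (-0.105 to 0.022 with 1 array left out, positive without Mll1 knockout 4).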
